A study of Homo sapiens with 12 samples.

Results

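The 39 genes described here serve the G2 phase and mitosis, from the kinase CDK1 and its cyclins to the motors of the spindle and of the cleavage furrow. They were taken from a list of symbols that was drawn up with earlier results of these data known and that names no measured value as a criterion. Each was read from the row of highest mean in the table of 12 arrays. Of the 39 genes, 37 had a row of their own among 22395 named genes. BUB1B and CENPA were only on rows shared with another gene and were not read. CDC25C (mean 4.68 on the log2 scale) and PTTG1 (mean 2.70) lay below the limit of a mean of 5, so 35 of the 39 genes were tested, among 5820 tested genes in all.

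The RNA was from NCI-H1975, a line of human lung adenocarcinoma whose EGFR, the receptor kinase that erlotinib inhibits, is mutant in every group. The groups were untreated cells (1 array, with no time given), 1 µM erlotinib (4 arrays, at 6, 12, 24 and 48 h), 3 µM quinacrine, an acridine antimalarial (3 arrays, at 6, 12 and 24 h), and both compounds at these doses (4 arrays, at 6, 12, 24 and 48 h). No condition had more than 1 array, and n counts times of treatment. The labels do not say whether the dishes were independent cultures. A p-value therefore reflects the scatter of these arrays alone, which may be technical.

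A cell enters mitosis when CDK1, bound to cyclin A or B and switched on by CDC25 phosphatases, phosphorylates its many targets. Polo and Aurora kinases build the spindle, the checkpoint holds the cell until the chromosomes are attached, and the anaphase-promoting complex with CDC20 then destroys cyclin B and securin. These genes are transcribed mainly from S phase to mitosis by B-MYB, FOXM1 and the MuvB complex, so that their summed RNA is widely used as a gauge of proliferation in tumour cells.

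Levels below are log2 values as the authors normalized them, each array centred on its median over the tested genes. Of 10 markers of lung epithelium and adenocarcinoma, 5 averaged above the limit: EPCAM (8.54), KRT7 (7.42), KRT19 (8.29), CDH1 (10.31) and NKX2-1, a lung lineage factor (6.12). The other 5 averaged below it: the keratins KRT8 (2.81) and KRT18 (4.71), the protease NAPSA (2.87) and the surfactant genes SFTPB (1.65) and SFTPC (1.76). Of 13 leukocyte, endothelial and fibroblast markers with a row, 12 averaged below the limit and CD68, a lysosomal protein, averaged 8.57. The combination 6 h array stood apart from the others: the interquartile range of its values was 2.04, against 2.26 to 2.88 elsewhere, 7470 rows reached 5, against 8193 to 9169, and before centring its median over the tested genes was 6.18, against 6.39 to 6.56. Counts of calls, the slopes in the combination and the course of its levels are given with and without it.

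With time in the combination 5 of the 35 tested mitosis genes fell, where 7.66% of all genes were called in either direction. In erlotinib or quinacrine alone 0 of the 35 passed that test, where 0.137% and 0% of all genes did. The count of 5 became 0 as deposited, where 4.97% of all genes were called, and 0 without the combination 6 h array, where 0.0687% were. The differences in slope between the combination and either compound alone were called for 0 of the 35, and for 0% of all genes. At 48 h of the combination, 32 of the 35 tested genes were below the untreated array, as were 54.5% of all genes. On the combination 48 h array the median difference of the 35 was -0.36, against -0.04 over all tested genes. That array held the lowest of the 12 values for 27 of the 35 genes, as it did for 15.2% of all tested genes. Without centring it held the lowest value for 21 of the 35, and for 8.51% of all genes. For 43 tested genes of G1/S and DNA synthesis the median difference from untreated at combination 48 h was -0.405, so the lower level was not particular to mitosis genes. In such bulk RNA, fewer cells in G2 or mitosis and less of the mitosis RNAs per cell cannot be told apart.

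**Figure D1:**
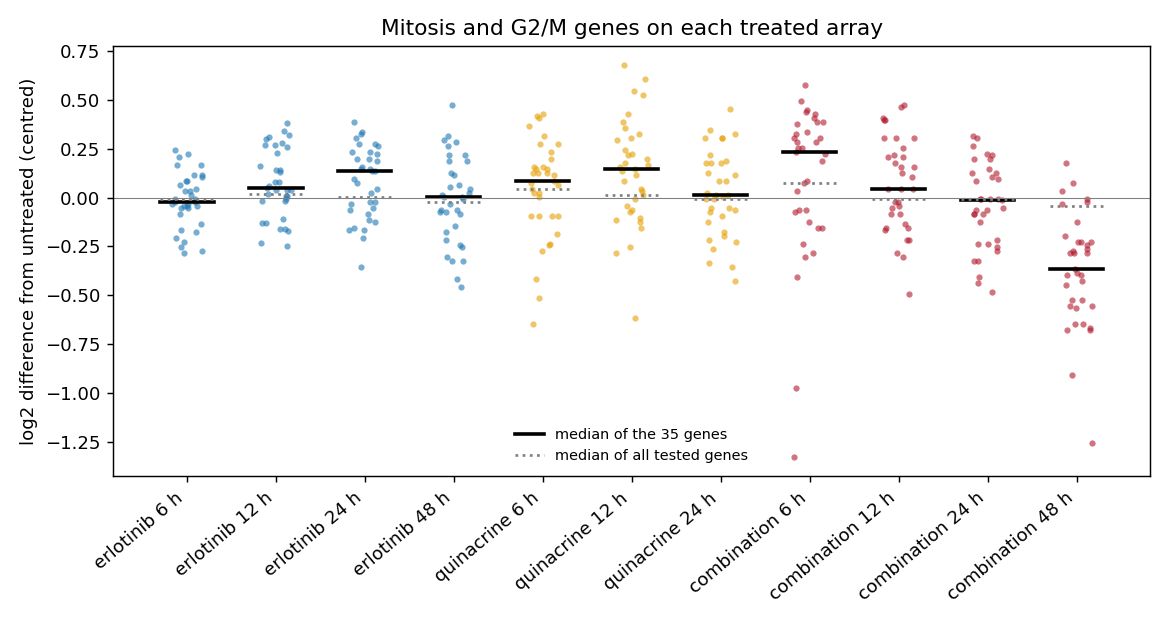
Each point is 1 of the 35 tested mitosis and G2/M genes, and the vertical axis is its log2 difference from the untreated array on the centred scale, for the 11 treated arrays. Black bars mark the median of the 35 genes and dotted bars that of all 5820 tested genes. The 2 lie within 0.16 of each other on every array but combination 48 h, where the median of the 35 genes is -0.36 and that of all genes -0.04.

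Single arrays were compared with the untreated array by counting the genes lower by 1.5-fold or more, with no test. In erlotinib, 0 of the 35 genes were that much lower at 6, 12, 24 and 48 h, where 0.43%, 3.32%, 2.59% and 4.62% of all tested genes were. In quinacrine the count was 1 at 6 h and 1 at 12 h, both times KIF23, against 6.48% of all genes at each time, and 0 at 24 h, against 5.5%. In the combination it was 2 at 6 h (UBE2C and KIF2C, against 10.5% of all genes), 0 at 12 h (5.03%) and 0 at 24 h (5.4%). As deposited the count at 6 h was 4, with KIF4A and KIF20A added, against 20.7% of all genes. At 48 h it was 7 of 35, against 6.6% of all genes. The 7 were KIF20A, HMMR, MKI67, MYBL2, CCNB1, CDC20 and KIF23. As deposited it was 4 at 48 h, namely KIF20A, HMMR, MYBL2 and MKI67, against 4.35% of all genes. Set against the erlotinib 48 h array, 31 of the 35 genes were below it, as were 51.7% of all genes. The median was -0.36, against -0.02 for all genes. Of the 35, 6 were lower by 1.5-fold or more (KIF20A, MKI67, KIF11, CENPF, HMMR and CCNA2), against 5.88% of all genes.

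The levels along the combination course were compared from each array to the next. From 24 to 48 h, 34 of the 35 genes were lower, against 55.3% of all genes, and AURKB was the exception, at 0.12 above. From each time to the next, 14 of the 35 were lower at every step, against 16.7% of all genes. The median step was -0.07 from 6 to 12 h, where that of all genes was -0.09, then -0.13 from 12 to 24 h against 0.00, and -0.33 from 24 to 48 h against -0.03. The first of these steps rests on the combination 6 h array and on the centring. As deposited, 33 of the 35 genes were higher at 12 h than at 6 h, with a median step of 0.30 against 0.28 for all genes, and 2 of the 35 were lower at every step, against 2.97% of all genes. From 12 h on, 26 of the 35 were lower at both steps, against 27.1% of all genes, and 27 were as deposited, against 27.4%.

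The change with time was tested as a slope per doubling of time within each treated group, in 1 limma fit of the 11 treated arrays, a comparison added after the levels had been seen. In the combination 5 of the 35 genes fell and 0 rose past an adjusted p of 0.05, against 7.66% of all genes called in either direction. They were MKI67, CCNA2, NUSAP1, PLK1 and ANLN. Slopes were below 0 for 30 of the 35, against 58.5% of all genes. The median slope of the 35 was -0.18, against -0.03 for all tested genes. In erlotinib 0 of the 35 passed, against 0.137% of all genes, and 0 of 35 had an unadjusted p under 0.05, where 10.9% of all genes did. The median slope there was 0.01, against -0.01 for all genes. In quinacrine, over 3 times, 0 of the 35 passed, against 0% of all genes, and 1 had an unadjusted p under 0.05, against 11.6%.

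The combination slopes depended on its first and last arrays and on the scaling. Without the combination 6 h array 0 of the 35 genes passed, where 0.0687% of all genes did. The median slope was then -0.22, and slopes ran from -0.35 to -0.25 for the 5 named genes. Without the 48 h array 0 passed, against 1.46% of all genes, with a median of -0.10. Without the 24 h array 1 passed, against 1.63%. Without any 1 of the quinacrine arrays 3 passed, against 4.85%, and this result is the same whichever of them is left out. As deposited, without centring, the median slope of all genes was 0.08, and centred on the median of all rows it was 0.15. The median of the 35 genes was then -0.07 and 0.00, with 26 and 18 of 35 slopes below 0. Calls among the 35 were 0 in both, against 4.97% and 8.21% of all genes. These scalings add 1 constant per array, so they leave the gap between the 35 genes and all genes as it was, by construction.

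The difference in slope between combination and erlotinib was tested on their 8 arrays. The slope was lower in the combination for 29 of the 35 genes, against 54.8% of all genes. The median difference was -0.17, against -0.02 for all genes. With limma, 0 of the 35 passed, against 0% of all genes, and 11 of 35 had an unadjusted p under 0.05, where 16% of all genes did. The smallest p belonged to MKI67 (-0.36, SE 0.08, adjusted p = 0.129), NUSAP1 (-0.34, SE 0.08, adjusted p = 0.139) and KIF11 (-0.26, SE 0.08, adjusted p = 0.188). The difference in slope between combination and quinacrine came from the fit of 11 arrays. It was below 0 for 31 of the 35 genes, against 54% of all genes, with a median of -0.17 against -0.01 for all genes. With limma 0 of the 35 passed, against 0% of all genes, the smallest adjusted p was 0.946, and 4 had an unadjusted p under 0.05, against 5.21% of all genes. A slope shared by the 3 treated groups passed for 0 of the 35 genes, against 3.97% of all genes, and 8 had an unadjusted p under 0.05, against 26.1%. The smallest p there belonged to ANLN (-0.19, SE 0.05, adjusted p = 0.0644), MYBL2 (-0.14, SE 0.05, adjusted p = 0.092) and CDC20 (-0.13, SE 0.04, adjusted p = 0.106). Leaving out the erlotinib 6 h array raised that count from 0 to 6, all lower with time, and that of all genes to 715, or 12.3%.

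**Figure D2:**
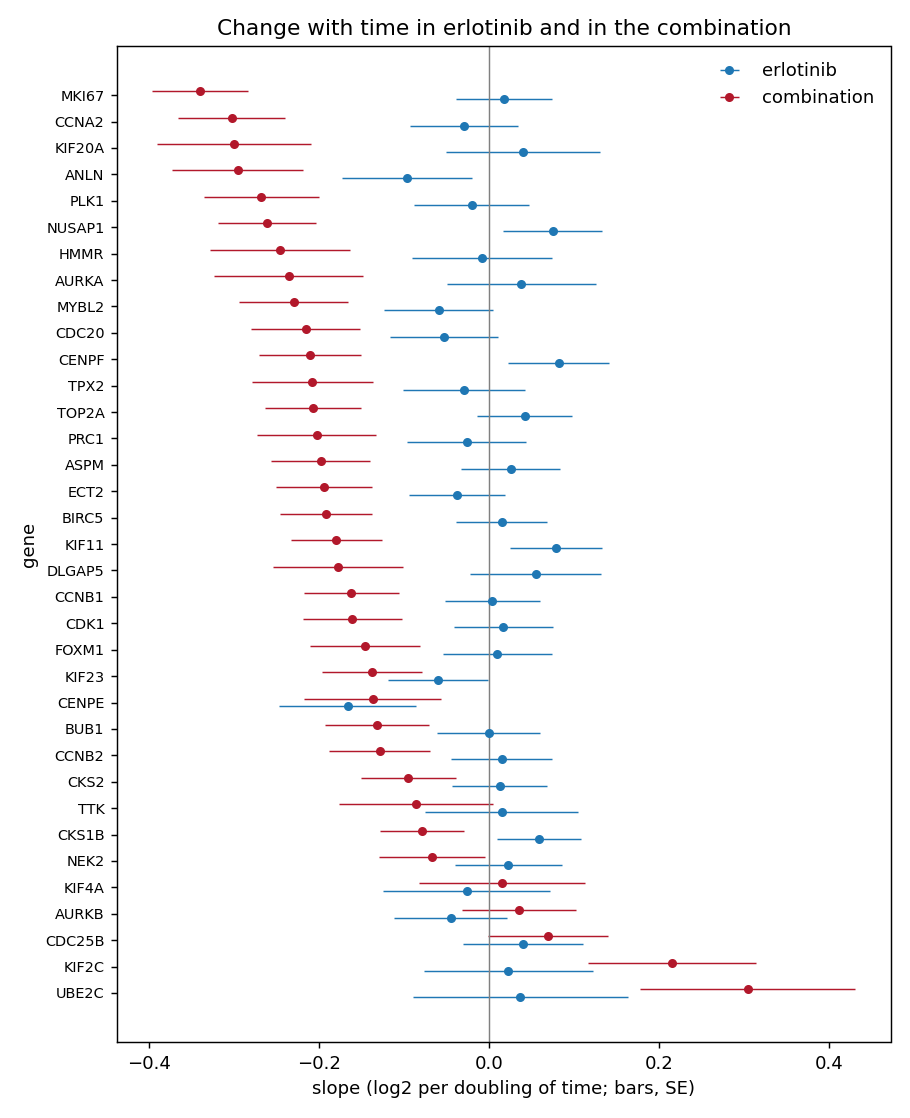
Points are the log2 slope per doubling of time of each of the 35 tested genes in erlotinib (blue) and in the combination (red), with bars of 1 SE, from a limma fit of the 11 treated arrays on the centred scale. Red points lie left of 0 for 30 of the 35 genes and blue points for 14; centred on the median of all rows, 18 of the red points would.

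The 5 genes that fell in the combination, and 2 that differed between treatments, CKS1B and KIF20A, carry most of what follows, and their promoters are printed here to show the motifs that this class of gene shares. Each run is the 100 bases before the RefSeq transcription start (build GRCh38.p14), 5′ to 3′ on the gene's strand. Capitals mark TTTGAA or its reverse complement TTCAAA, a form of the cell cycle genes homology region bound by MuvB complexes. They also mark CCAAT or its reverse complement ATTGG, the box bound by NF-Y. Only these exact sequences were searched, so other forms of either motif are not marked or counted. The runs are MKI67 at chr10:128126424-128126523 (minus strand), CCNA2 at chr4:121823884-121823983 (minus), NUSAP1 at chr15:41332781-41332880 (plus), PLK1 at chr16:23678789-23678888 (plus), ANLN at chr7:36389762-36389861 (plus), KIF20A at chr5:138179012-138179111 (plus) and CKS1B at chr1:154974581-154974680 (plus).
MKI67: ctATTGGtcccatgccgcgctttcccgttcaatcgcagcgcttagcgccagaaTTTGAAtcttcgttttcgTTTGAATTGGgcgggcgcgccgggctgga
CCNA2: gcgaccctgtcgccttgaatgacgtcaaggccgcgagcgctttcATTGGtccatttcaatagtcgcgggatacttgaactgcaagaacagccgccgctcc
NUSAP1: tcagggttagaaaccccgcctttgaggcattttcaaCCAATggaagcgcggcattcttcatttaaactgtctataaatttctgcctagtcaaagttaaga
PLK1: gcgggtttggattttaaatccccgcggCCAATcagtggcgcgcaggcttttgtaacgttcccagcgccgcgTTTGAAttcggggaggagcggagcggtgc
ANLN: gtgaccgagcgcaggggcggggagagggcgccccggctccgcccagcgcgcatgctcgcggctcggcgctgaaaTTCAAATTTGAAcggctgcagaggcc
KIF20A: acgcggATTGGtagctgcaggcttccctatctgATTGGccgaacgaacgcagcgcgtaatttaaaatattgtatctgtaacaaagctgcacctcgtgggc
CKS1B: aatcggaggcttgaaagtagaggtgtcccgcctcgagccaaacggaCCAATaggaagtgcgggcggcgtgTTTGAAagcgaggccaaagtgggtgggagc

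In these runs PLK1 and CKS1B held both motifs in the same layout, TTTGAA starting 29 and 30 bases before the start and a CCAAT box upstream of it, at 73 and 54 bases. MKI67 held 2 of each, and its last TTTGAA and ATTGG overlap by 1 base. ANLN held the first motif on both strands, TTCAAA followed directly by TTTGAA, and no CCAAT. Of the exact sequences searched, CCNA2, NUSAP1 and KIF20A held CCAAT boxes only, which does not show that they lack other forms of the first motif. Of the 39 genes 33 had a promoter in the RefSeq table. In the 250 bases before the start, TTTGAA or TTCAAA was found in 20 of the 33 (60.6%), against 14.2% of 15843 protein-coding genes, and CCAAT or ATTGG in 28 (84.8%), against 40.2%. Both were found in 18 (54.5%), against 5.45%. Within 60 bases of the start the first motif was found in 15 of the 33 (45.5%), against 2.85%. Among tested genes, the median combination slope was -0.19 for the 17 with the first motif in the 250 bases and -0.15 for the 12 without it, which is a description with no test. Without the combination 6 h array the order was the other way, at -0.22 and -0.24.

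Among the genes of mitotic entry, CDK1, the kinase that drives it, was at 5.45 untreated, at 5.53, 5.76, 5.54 and 5.66 after 6, 12, 24 and 48 h of erlotinib, at 5.81, 5.67 and 5.47 after 6, 12 and 24 h of quinacrine, and at 5.70, 5.42, 5.43 and 5.16 after 6, 12, 24 and 48 h of the combination. The combination 48 h array was the lowest and the groups overlapped. CCNB1, cyclin B1, was at 6.83 untreated, at 6.69, 6.59, 6.66 and 6.68 in erlotinib, at 6.55, 6.54 and 6.60 in quinacrine and at 6.59, 6.67, 6.34 and 6.16 in the combination, in the same order of times. Every treated array was below the untreated one, and the last 2 combination arrays were below all others. In the comparison of combination with untreated cells CCNB1 did not pass (-0.39, SE 0.18, adjusted p = 0.406 with limma).

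CCNA2, cyclin A2, which partners CDK2 and CDK1 from S phase to early mitosis, was at 8.45 untreated, at 8.61, 8.71, 8.78 and 8.49 in erlotinib, at 8.52, 8.64 and 8.39 in quinacrine and at 8.83, 8.57, 8.36 and 7.89 in the combination. Combination 48 h was the lowest of the 12, and the combination arrays at 24 and 48 h were below all 4 of erlotinib. Combination 6 h was the highest on the centred scale alone: as deposited it was at 8.54, below erlotinib 24 h at 8.80. CCNA2 fell in the combination by 0.30 per doubling of time (SE 0.06, adjusted p = 0.0272 with limma). CDC25B, a phosphatase that activates cyclin-CDK1, was at 7.74 untreated, at 7.69, 7.49, 7.97 and 7.66 in erlotinib, at 7.32, 7.66 and 7.91 in quinacrine and at 7.66, 7.58, 7.82 and 7.81 in the combination. With CKS1B and AURKB it was 1 of the 3 genes above the untreated level at combination 48 h, and in quinacrine its slope of 0.30 had the smallest p of the 35 genes (SE 0.11, adjusted p = 0.334 with limma).

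CKS1B is a small subunit of cyclin-dependent kinases that also serves the SCF ligase in the destruction of p27. It was at 7.58 untreated, at 7.32, 7.45, 7.49 and 7.50 in erlotinib, at 8.0, 7.93 and 7.88 in quinacrine and at 8.0, 7.88, 7.84 and 7.75 in the combination. All 7 arrays with quinacrine were above the 5 without it, and the share of all genes with this pattern was not counted. For PRC1 the same held at 6, 12 and 24 h on the centred scale, at 7.71 to 8.01 with quinacrine and at 7.62 or less without it. As deposited PRC1 was at 7.53 at combination 6 h, below 7.66 at erlotinib 6 h. The pattern did not hold for PRC1 at combination 48 h (7.20). CKS2, the paralog of CKS1B, was at 9.27 untreated, at 9.04, 9.11, 9.20 and 9.05 in erlotinib, at 9.17, 9.14 and 9.09 in quinacrine and at 8.98, 9.05, 8.94 and 8.70 in the combination. The untreated array was the highest for CKS2 and combination 48 h the lowest.

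Of the kinases beside CDK1, PLK1, which acts at centrosomes, kinetochores and the midzone, was at 10.05 untreated, at 10.01, 10.13, 10.32 and 9.88 in erlotinib, at 10.25, 10.19 and 10.00 in quinacrine and at 10.50, 10.16, 10.00 and 9.66 in the combination. Combination 48 h was the lowest of the 12. Combination 6 h was the highest on the centred scale alone: as deposited it was at 10.21, below erlotinib 24 h at 10.34. PLK1 fell in the combination by 0.27 per doubling of time (SE 0.07, adjusted p = 0.0425 with limma). AURKA, the Aurora kinase of centrosomes and spindle poles, was at 6.14 untreated, at 6.11, 6.17, 6.42 and 6.15 in erlotinib, at 6.46, 6.75 and 6.33 in quinacrine and at 6.43, 6.62, 6.27 and 5.76 in the combination. Combination 48 h was the lowest, quinacrine 12 h the highest, and the combination slope of -0.24 did not pass (SE 0.09, adjusted p = 0.111 with limma).

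BUB1, a kinase of the spindle checkpoint, was at 7.82 untreated, at 7.76, 7.96, 7.89 and 7.78 in erlotinib, at 8.09, 7.98 and 8.14 in quinacrine and at 8.12, 8.22, 7.92 and 7.78 in the combination. The 3 quinacrine arrays were above the 4 of erlotinib. TTK, the checkpoint kinase also called MPS1, ranged from 5.66 to 6.05 in erlotinib, from 5.86 to 6.39 in quinacrine and from 5.69 to 6.11 in the combination, so its groups overlapped. AURKB, the kinase of the chromosomal passenger complex, stayed between 9.46 and 9.89 on all 12 arrays, with its lowest value at erlotinib 48 h. NEK2, a centrosomal kinase, had the narrowest range of the 35 genes, 0.42, with its lowest value of 6.24 at combination 48 h.

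The transcription factors of the programme differed in size of movement. FOXM1, a forkhead factor of G2/M genes, was at 7.58 untreated, at 7.63, 7.86, 7.89 and 7.65 in erlotinib, at 7.70, 7.60 and 7.76 in quinacrine and at 8.08, 7.74, 7.78 and 7.58 in the combination. Its last combination array was level with the untreated one. MYBL2, which encodes B-MYB, was at 9.13 untreated, at 8.97, 9.12, 9.01 and 8.81 in erlotinib, at 9.04, 9.13 and 8.80 in quinacrine and at 9.22, 8.83, 8.81 and 8.46 in the combination. Combination 48 h was the lowest, and the slope of -0.23 there missed the threshold (SE 0.06, adjusted p = 0.0541 with limma).

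Of the kinetochore genes, CENPE, a kinesin that carries chromosomes to the spindle equator, was at 6.63 untreated, at 6.67, 6.92, 6.60 and 6.22 in erlotinib, at 6.40, 6.67 and 6.65 in quinacrine and at 6.51, 6.68, 6.51 and 6.11 in the combination. The 48 h arrays held its 2 lowest values, and its slope in erlotinib (-0.17, SE 0.08, adjusted p = 0.493) was the only erlotinib slope of the 35 genes below -0.10. CENPF, a protein of the outer kinetochore, was at 7.24 untreated, at 7.23, 7.21, 7.37 and 7.45 in erlotinib, at 7.36, 7.35 and 7.23 in quinacrine and at 7.42, 7.45, 7.23 and 6.79 in the combination. Its value at 48 h was the highest of the erlotinib arrays and the lowest of the combination arrays. CDC20, the activator of the anaphase-promoting complex, was at 9.86 untreated, at 9.57, 9.72, 9.70 and 9.40 in erlotinib, at 9.86, 9.81 and 9.64 in quinacrine and at 9.93, 9.64, 9.64 and 9.21 in the combination. Both 48 h arrays were below all earlier ones. UBE2C, the ubiquitin-conjugating enzyme of that complex, was at 6.22 untreated, at 6.39, 6.06, 6.37 and 6.41 in erlotinib, at 6.38, 6.12 and 6.22 in quinacrine and at 4.90, 6.06, 6.22 and 5.86 in the combination. The combination 6 h array was far below the other 11.

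Among genes of the spindle, NUSAP1, which bundles microtubules near chromosomes, was at 7.63 untreated, at 7.74, 7.71, 7.83 and 7.95 in erlotinib, at 7.79, 8.02 and 7.75 in quinacrine and at 8.21, 7.94, 7.73 and 7.41 in the combination. In erlotinib the last array was the highest of the 4, and in the combination the lowest. NUSAP1 fell in the combination by 0.26 per doubling of time (SE 0.06, adjusted p = 0.0299 with limma). KIF11, the motor that pushes the spindle poles apart, was at 7.32 untreated, at 7.52, 7.62, 7.59 and 7.79 in erlotinib, at 7.40, 7.61 and 7.53 in quinacrine and at 7.62, 7.52, 7.31 and 7.09 in the combination. Its highest value was erlotinib 48 h and its lowest combination 48 h.

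HMMR, a spindle pole protein, was lower than untreated by 0.91 at combination 48 h, second only to KIF20A among the 35 genes. TPX2, the activator of Aurora A, ranged from 8.99 to 9.37 in erlotinib and reached 8.59 at combination 48 h. DLGAP5 and ASPM, a kinetochore-fibre and a spindle pole protein, were lowest at combination 48 h, at 6.24 and 6.51. KIF2C, a kinesin that depolymerizes microtubules at centromeres, was at 6.04 untreated, at 6.04, 6.03, 6.07 and 6.10 in erlotinib, at 5.53, 5.79 and 6.22 in quinacrine and at 5.07, 5.99, 6.04 and 5.77 in the combination. The 6 h arrays with quinacrine were its 2 lowest. KIF4A, a chromosome-bound kinesin, was at 6.92 and 6.90 at 6 and 48 h of the combination and at 7.23 to 7.71 elsewhere. UBE2C and KIF2C, low at 6 h, had the 2 highest combination slopes, 0.30 and 0.22, neither past the threshold (adjusted p = 0.144 and 0.177 with limma). Both rest on the 6 h array: without it the slopes were -0.10 and -0.11, and at 48 h the levels were 0.20 and 0.22 below those at 12 h.

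KIF20A, a kinesin of the central spindle that cytokinesis needs, was at 7.79 untreated, at 7.70, 7.92, 7.98 and 7.81 in erlotinib, at 7.60, 7.83 and 7.43 in quinacrine and at 7.48, 7.50, 7.35 and 6.53 in the combination. All 4 combination arrays were below all 4 of erlotinib, and combination 48 h was 0.82 below the next. ANLN, anillin, a scaffold of the contractile ring, was at 9.88 untreated, at 9.83, 10.19, 9.85 and 9.62 in erlotinib, at 10.11, 10.20 and 9.75 in quinacrine and at 10.20, 10.05, 9.64 and 9.35 in the combination. Values were lower at the last time than at 12 h in each treated group, and ANLN fell in the combination by 0.30 per doubling of time (SE 0.08, adjusted p = 0.0461 with limma). KIF23, the kinesin of the centralspindlin complex, was at 7.26 untreated, at 7.06, 7.16, 6.91 and 6.94 in erlotinib, at 6.62, 6.65 and 6.84 in quinacrine and at 7.11, 6.77, 6.86 and 6.62 in the combination. The untreated array was the highest of the 12. PRC1, which bundles midzone microtubules, and ECT2, which activates RhoA at the furrow, were lowest at combination 48 h, at 7.20 and 7.86.

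TOP2A, the topoisomerase that untangles sister chromatids, was at 9.62 untreated, at 9.63, 9.76, 9.66 and 9.80 in erlotinib, at 9.76, 9.86 and 9.74 in quinacrine and at 10.02, 9.82, 9.76 and 9.35 in the combination. MKI67, which encodes the proliferation antigen Ki-67, was at 8.73 untreated, at 8.77, 8.78, 8.71 and 8.85 in erlotinib, at 8.76, 8.82 and 8.47 in quinacrine and at 9.11, 8.71, 8.46 and 8.06 in the combination. For both genes the last combination array was the lowest of the 12, and the erlotinib values spanned no more than 0.17. The first was the highest on the centred scale alone. As deposited it was at 9.73 for TOP2A, below 9.90 at combination 12 h, and at 8.82 for MKI67, below 8.93 at erlotinib 48 h. When centred, combination 6 h held the highest value for 11 of the 35 genes, and for 24.4% of all genes. As deposited it did for 0 of the 35, and for 2.15% of all genes. MKI67 fell in the combination by 0.34 per doubling of time (SE 0.06, adjusted p = 0.0152 with limma). BIRC5, survivin, was at 6.73 at combination 48 h and at 7.05 to 7.32 elsewhere.

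CDC25C and PTTG1, below the limit and not tested, are given by level alone. CDC25C, a phosphatase that activates CDK1, ranged from 4.45 to 5.24 in erlotinib, from 4.61 to 4.81 in quinacrine and from 4.26 to 4.81 in the combination, with its lowest value at 48 h. PTTG1, securin, stood between 2.02 and 3.06 on all 12 arrays.

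**Figure D3:**
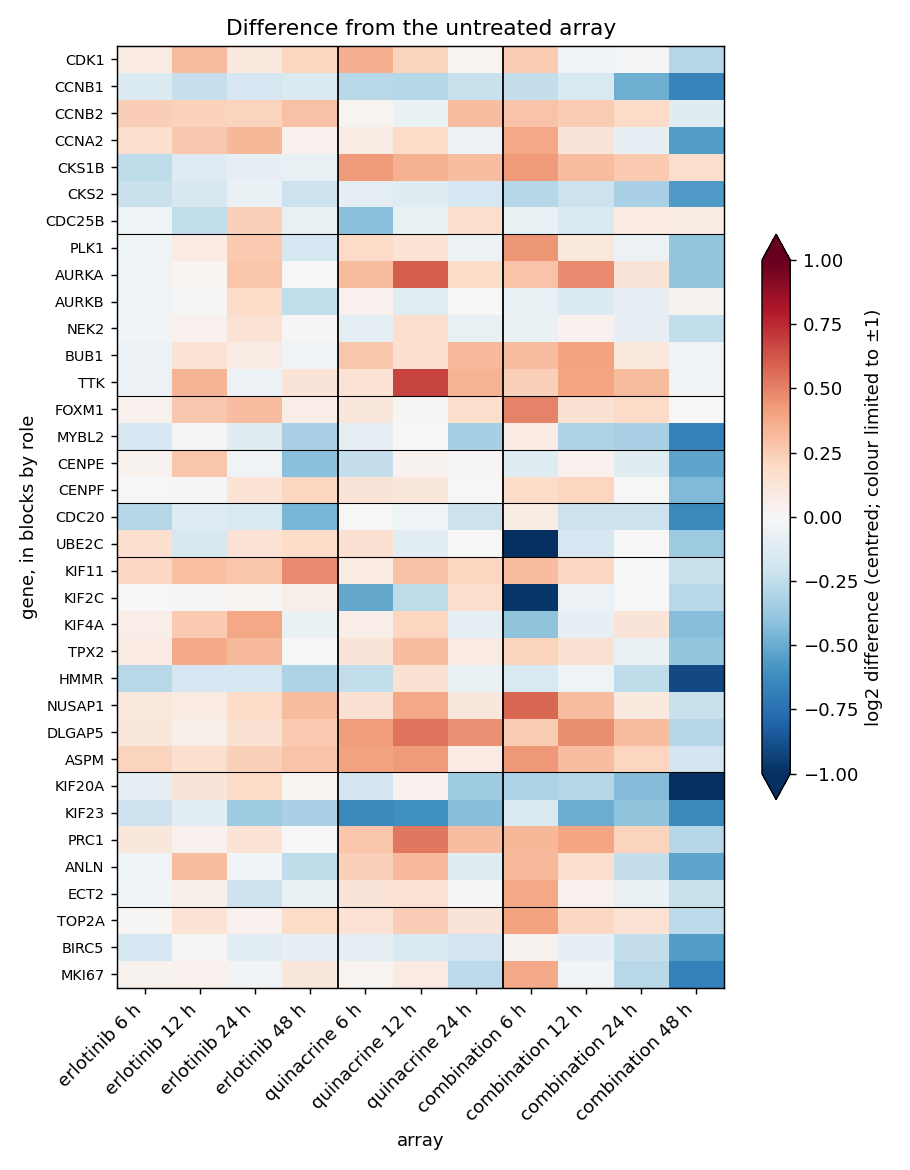
Colours give the log2 difference of each of the 35 tested genes (rows, in blocks by role) from the untreated array on the centred scale, for the 11 treated arrays (columns), limited to 1 in either direction. The last column is below 0 for 32 of the 35 genes (blue, or near white as for FOXM1), CKS1B is red in the 7 columns with quinacrine and blue in those of erlotinib, and UBE2C and KIF2C are dark blue at combination 6 h.

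The effect of adding quinacrine to erlotinib was tested at 4 matched times, with time as a factor. CKS1B was higher and KIF20A lower, and the other 33 of 35 genes did not pass, against 7.54% of all genes called in either direction. KIF20A was lower in the combination by a log2 difference of -0.64, or 1.55-fold (SE 0.16, adjusted p = 0.0402 with limma). It was the only 1 of the 35 genes with all combination arrays below all erlotinib arrays, a pattern found in 6.67% of all genes. CKS1B was higher by 0.43, or 1.35-fold (SE 0.10, adjusted p = 0.0322 with limma), and was the only 1 with all combination arrays above, against 6.72% of all genes. After these 2, KIF4A came next by p (-0.36, SE 0.12, adjusted p = 0.0976 with limma). The 95% interval of the difference lay within 1.5-fold either way for 30 of the 35 genes. That difference is an average over the 4 times, in which differences of opposite sign cancel. For MKI67 the single-array difference was 0.34 at 6 h and -0.79 at 48 h. At 48 h alone 6 of the 35 were lower by 1.5-fold or more, against 5.88% of all genes.

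Neither call held under every setting. As deposited or centred on all rows, 0 of the 35 passed, against 3.64% and 0.756% of all genes. The KIF20A difference was -0.42 and did not pass without the combination 48 h or the erlotinib 48 h array, and it kept its call, at -0.85, with both combination 6 h and erlotinib 12 h left out. Over single arrays left out it ranged from -0.75 to -0.42 and passed in 2 of 11 cases, without erlotinib 6 h and without combination 6 h. CKS1B ranged from 0.35 to 0.49 and passed in 3 of 11, without erlotinib 48 h, quinacrine 6 h or combination 48 h. It was at 0.37 and not past the threshold with combination 6 h and erlotinib 12 h both left out. Leaving out either 48 h array gives the same result, since the other is then alone at its time, so these cases are not separate.

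Quinacrine alone differed from erlotinib alone in 1 of the 35 genes, against 5.03% of all genes. CKS1B was higher by 0.49, or 1.40-fold (SE 0.11, adjusted p = 0.0394 with limma), with all 3 quinacrine arrays above all 4 of erlotinib. This comparison and the last share the erlotinib arrays. The difference ranged from 0.40 to 0.52 with single arrays left out and passed in 3 of 11 cases, without erlotinib 48 h, combination 6 h or combination 48 h. Again the cases without either 48 h array are the same result. Next by p came KIF23 (-0.36, SE 0.13, adjusted p = 0.138 with limma). KIF20A was lower in quinacrine by a difference that did not pass (-0.35, SE 0.18, adjusted p = 0.286 with limma). These differences come from the fit of 11 arrays, which holds 48 h arrays though quinacrine has none. At the matched 6, 12 and 24 h the single-array differences for KIF20A were -0.10, -0.085 and -0.55.

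**Figure D4:**
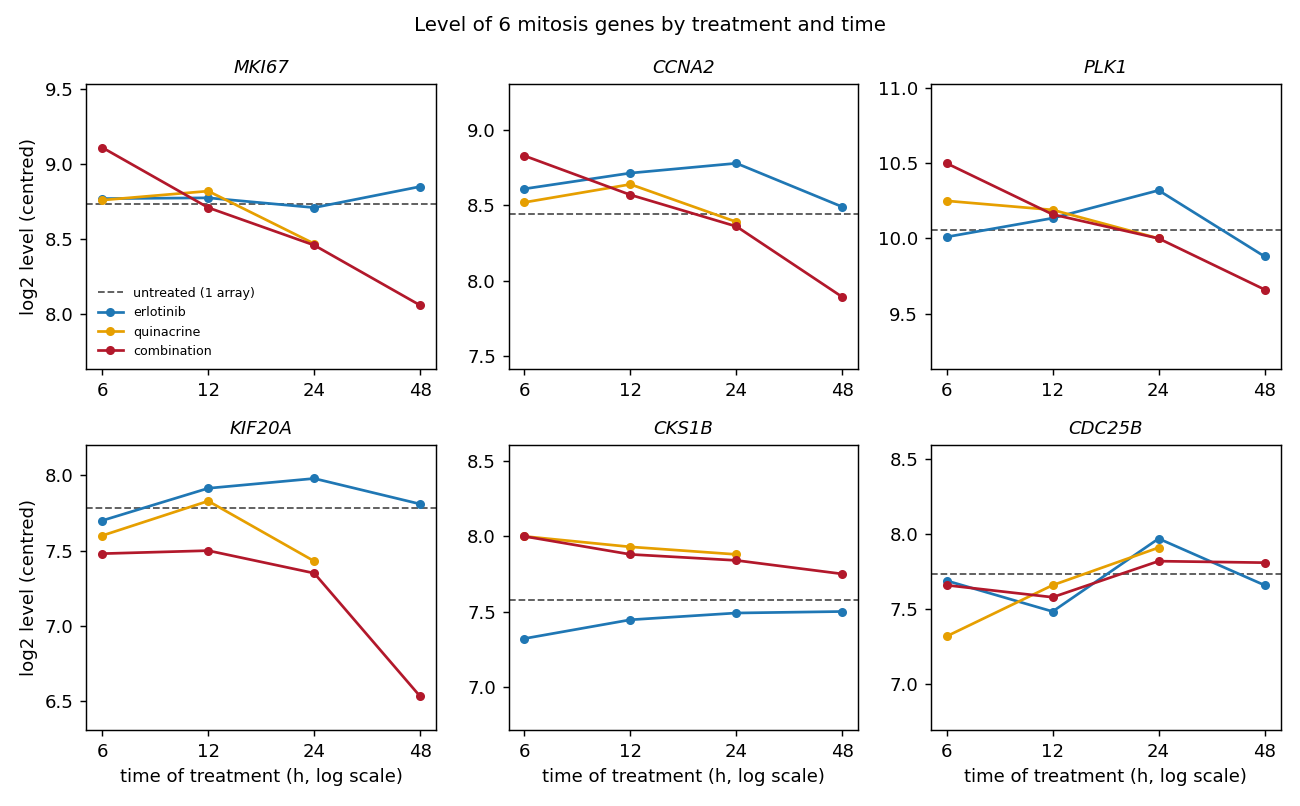
Centred log2 level (vertical axis) against time in h on a log scale for 6 genes, with 1 array per point: erlotinib in blue, quinacrine in orange, the combination in red and the untreated array as a dashed line. The combination reaches its lowest level at 48 h for MKI67 (8.06), CCNA2 (7.89), PLK1 (9.66) and KIF20A (6.53), CKS1B lies above the untreated line in both arms with quinacrine, and CDC25B has no low value at 48 h.

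The addition of erlotinib to quinacrine was compared at 3 matched times. With limma 0 of the 35 genes passed, against 0% of all genes, and 0 of 35 had an unadjusted p under 0.05, where 1.86% of all genes did. The median difference was -0.06, against 0.00 for all genes, and the 95% interval lay within 1.5-fold either way for 33 of the 35. The 3 genes with the smallest p were UBE2C (-0.51, SE 0.26), KIF20A (-0.28, SE 0.18) and CKS2 (-0.17, SE 0.11), each at an adjusted p of 0.999. At the matched 6, 12 and 24 h the single-array differences for UBE2C were -1.48, -0.06 and 0.00, so its difference rests on the combination 6 h array. They were -0.12, -0.33 and -0.08 for KIF20A and -0.19, -0.09 and -0.15 for CKS2. With only the combination and quinacrine arrays of the shared times, the median difference of the 35 genes was -0.03, against 0.01 for all genes. There 0 of the 35 passed with limma, against 0% of all genes.

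Comparisons with untreated cells rest on 1 untreated array, assumed to vary like the treated ones, and share it. In erlotinib 0 of the 35 genes passed with limma, against 0% of all genes, and 0 had an unadjusted p under 0.05, where 2.99% of all genes did. The 95% interval lay within 2-fold for all 35 genes but within 1.5-fold for 15. The smallest p belonged to KIF11 (0.31, SE 0.20), CCNB2, cyclin B2 (0.25, SE 0.18), and KIF23 (-0.25, SE 0.19), each at an adjusted p of 0.998. CCNB2 was at 7.09 untreated, at 7.34, 7.33, 7.32 and 7.39 in erlotinib, at 7.12, 7.03 and 7.40 in quinacrine and at 7.38, 7.35, 7.29 and 6.97 in the combination, so that the 4 erlotinib arrays were above the untreated one.

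In quinacrine 0 of the 35 passed, against 0.103% of all genes, and 2 had an unadjusted p under 0.05, against 12.3% of all genes. They were KIF23 (-0.56, SE 0.19, adjusted p = 0.263 with limma) and CKS1B (0.36, SE 0.15, adjusted p = 0.35 with limma), followed by DLGAP5 (0.47, SE 0.23, adjusted p = 0.433 with limma). DLGAP5 was at 6.53 untreated, at 6.64, 6.58, 6.68 and 6.79 in erlotinib, at 6.94, 7.07 and 6.98 in quinacrine and at 6.78, 6.99, 6.83 and 6.24 in the combination. The 3 quinacrine arrays were above the untreated array and all 4 of erlotinib. In the combination 0 of the 35 passed, against 0.103% of all genes, and 2 had an unadjusted p under 0.05, against 12.6%. They were KIF23 (-0.42, SE 0.19, adjusted p = 0.364 with limma) and CKS2 (-0.35, SE 0.16, adjusted p = 0.374 with limma). This fit has no time term, so differences between times count as spread, and the 95% interval lay within 1.5-fold for 12 of the 35 genes and within 2-fold for 32.

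The 35 genes varied alike mainly when both ends of the combination course were counted. Over the 12 arrays, the range of a gene had a median of 0.72, against 0.70 for all tested genes, from 0.42 for NEK2 to 1.51 for UBE2C. The Pearson correlation of each gene with the median of the other genes had a median of 0.641, from -0.231 for CKS1B to 0.912 for CCNA2, and was above 0.5 for 24 of the 35. Over the 10 arrays left without combination 6 h and 48 h the median was 0.129, and 4 of the 35 were above 0.5. The points are arrays that share 1 normalization and the centring, and the correlations are descriptions with no test.

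By role, the median combination slope was -0.13 for mitotic entry (6 of 7 tested genes below 0), -0.11 for the other kinases (5 of 6), -0.19 for the transcription factors (2 of 2), -0.17 for the kinetochore (2 of 2), -0.19 for the spindle (6 of 8), -0.20 for cytokinesis (5 of 5) and -0.21 for TOP2A, BIRC5 and MKI67 (3 of 3). For CDC20 and UBE2C, of the anaphase-promoting complex, the slopes were -0.22 and 0.30. Without the combination 6 h array the medians were -0.18, -0.22, -0.13, -0.31, -0.26, -0.34 and -0.24 in that order of roles, and -0.16 for CDC20 and UBE2C.

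Other lists of cell cycle genes were read beside these. Of 46 tested genes of a list of other G2/M and mitosis genes, 7 fell and 0 rose with time in the combination, against 7.66% of all genes called in either direction, with a median slope of -0.11, against -0.03 for all genes. The 3 with the smallest p were NCAPD2, a condensin subunit (-0.33, SE 0.06, adjusted p = 0.0157), SPC24, of the kinetochore (-0.39, SE 0.07, adjusted p = 0.0192), and GTSE1, a microtubule-binding protein (-0.37, SE 0.07, adjusted p = 0.0245). Of 43 tested genes for G1/S and DNA synthesis, 3 fell and 1 rose, against the same 7.66%, with a median of -0.12. CHAF1A, a chromatin assembly factor, rose (0.39, SE 0.07, adjusted p = 0.0157), and GINS2 and MCM6, of the replicative helicase, fell (-0.34 and -0.26). At combination 48 h the median difference from untreated was -0.32 for the other G2/M list and -0.40 for the G1/S list, beside -0.36 for the 35 genes.

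These smaller lists are read against the same 7.66% of all genes. Of 10 tested subunits and activators of the anaphase-promoting complex, 1 rose with time in the combination, the activator FZR1 (0.34, SE 0.06, adjusted p = 0.0157). Of 8 tested genes of the DREAM and MuvB complexes, 1 rose, LIN37 (0.59, SE 0.09, adjusted p = 0.0118). Of 5 tested D-type cyclins, inhibitors and retinoblastoma family genes, CCND1 rose (0.30, SE 0.08, adjusted p = 0.0473) and RB1 fell (-0.27, SE 0.06, adjusted p = 0.0322). Without the combination 6 h array 4 of all 5820 genes, or 0.0687%, passed this test. CDKN1A, the p21 inhibitor of cyclin-dependent kinases, was below the limit, at 4.26 untreated, at 3.97, 4.04, 3.80 and 3.51 in erlotinib, at 4.04, 3.79 and 3.96 in quinacrine and at 4.26, 3.73, 4.01 and 4.56 in the combination. Its highest value was the combination 48 h array.

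Between combination and erlotinib, 0 of the 46 other G2/M genes passed and 4 of the 43 G1/S genes were lower, CHAF1A (-0.94, SE 0.15, adjusted p = 0.00669), CDT1 (-0.75, SE 0.12, adjusted p = 0.00806) and POLE (-0.48, SE 0.10, adjusted p = 0.0231) with the smallest p, where 7.54% of all genes were called. FZR1 and ANAPC11 were lower among the 10 genes of the anaphase-promoting complex (-0.87 and -0.53), and TFDP1 among the 8 of DREAM and MuvB (-0.45). Between quinacrine and erlotinib 1 of the 46 other G2/M genes was lower, KIF15, a spindle motor (-0.62, SE 0.15, adjusted p = 0.0423), as was FZR1 (-0.90), where 5.03% of all genes were called. Of the G1/S genes 3 were lower there and 1 was higher, with CHAF1A (-0.95), POLE (-0.62) and CDT1 (-0.65) lower.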

How the data were processed

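Total RNA was read on 12 Affymetrix Human Gene 2.1 ST arrays. Per the series' design text and the submitters' processing notes, the authors ran Affymetrix Expression Console 1.30 with RMA (background correction, quantile normalization, log2) and annotated probes with hg19 files, and deposited log2 values with 2 decimals. The table held 53617 rows: 23871 with 1 gene symbol, 1842 with several and 27904 with none.

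Here each array was centred on its median over the tested genes (mean of at least 5 over 12 arrays, 1 row per gene), and limma 3.58.1 in R 4.3.3 was run over all 5820, with Benjamini-Hochberg adjustment and a threshold of 0.05. Treatments were compared on 11 arrays with time as a factor (5 residual degrees of freedom), which makes the residual the departure from additive treatment and time, not replicate error. Untreated comparisons used group means of 12 arrays (8), the shared slope 11 arrays (7), the slope difference 8 arrays (4) and slopes within groups 11 arrays (5). The number of arrays limits the precision.

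The genes and lists were chosen with earlier results of these data known. Any of the 39 genes could be named. Every array was given for CDK1, CCNB1, CCNA2, PLK1, AURKA, BUB1, CDC20, KIF20A, TOP2A, MKI67, FOXM1, MYBL2 and CDC25B and for genes past the threshold (up to 10 per comparison; where none passed, the 3 of smallest p). Of other lists, up to 3 genes past the threshold per list and comparison were given with their values, and CDKN1A. Alternatives covered scaling, filter, rows of a gene, prior variance, array weights, times and arrays in the fit.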

Additional observations from a re-analysis of the deposited data

Results flagged for a closer look

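Among 70 sets of 4 arrays (35 genes in erlotinib and in the combination), 2 held an array far from the other 3; chance alone is expected to mark about 1 set in 20. KIF20A at combination 48 h was at 6.53, and the other combination arrays were at 7.35 to 7.50. UBE2C at erlotinib 12 h was at 6.06, and the other erlotinib arrays were at 6.37 to 6.41.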

How the results depend on the processing

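No gene past the threshold changed direction under another setting, while the median shared slope turned above 0 under 1 scaling. A median counted as moved when it shifted by more than the median SE of the 35 genes. All counts are of genes called among the 35. With values as deposited, the combination against erlotinib (2 on the main scale) gave 0, where 3.64% of all genes were called. Quinacrine against erlotinib (1) gave 0 (1.13% of all genes) and the slope within the combination (5) gave 0 (4.97%). Centring on the median of all rows gave 0 in each of these 3 (0.756%, 0.326% and 8.21% of all genes). So did the lack of a filter on the mean (0.603%, 0.246% and 0.0268%). Fitting only the pair of groups at shared times gave 0 for both treatment comparisons (3.2% and 3.28% of all genes). Using only 6, 12 and 24 h gave 1 for the combination against erlotinib (4.35% of all genes) and 0 for the slope within the combination (0.103%). Cyclic loess gave 1 there (6.15% of all genes called), a mean of at least 6 gave 14 (13.5%), an intensity trend 15 (12.4%) and array weights 9 (4.04%), against 5 and 7.66%. Array weights gave 1 for quinacrine (8.09% of all genes) and 2 for the combination (12% of all genes) against untreated (0 on the main scale), and the shared slope (0) gave 1 with a mean of at least 6 (7.13%) and 1 with an intensity trend (6.22%).

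The median shared slope (-0.07) was -0.0037 as deposited, 0.042 centred on all rows and -0.015 over 6, 12 and 24 h, and the median slope difference (-0.17) was -0.077 and -0.026 under the first 2 of these. The median slope within the combination (-0.18) was -0.07 as deposited, 0 centred on all rows, -0.11 with cyclic loess and -0.10 over 6, 12 and 24 h. Combination 48 h held 1 gene lower than untreated by 2-fold (KIF20A), against 0.962% of all genes. By 1.5-fold it held 4 as deposited, against 4.35%, and 7 when centred, against 6.6%.

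With each array left out in turn, calls ranged from 0 to 1 for the combination against erlotinib (2.37% to 8.04% of all genes). They ranged from 0 to 1 for quinacrine against erlotinib (0.515% to 8.18%). For the shared slope they ranged from 0 to 6 (0.636% to 12.3%) and for the slope within the combination from 0 to 5 (0.0687% to 10.4%). The median shared slope ranged from -0.11 to -0.017 and the median slope within the combination from -0.22 to -0.10. An alternative chosen after seeing the data dropped the combination 6 h and erlotinib 12 h arrays together. Its calls were 1 for the combination against erlotinib (5.29% of all genes), 0 for quinacrine against erlotinib (4.47%) and 0 for the slope within the combination (0.103%). For the fits on fewer genes or arrays the construction itself changes the adjustment or the degrees of freedom; for the other settings the cause was not tested. The table gives no signal over background, and changes in the faint genes CDC25C and PTTG1 were not tested on the main scale.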
